A study of Arabidopsis thaliana with 4 samples.

Results

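Beads that bind GFP were used on nuclear extracts of Arabidopsis thaliana plants without a tagged bait, and the RNA left on them was sequenced beside the nuclear input it came from. The comparison holds 2 of the 4 libraries of the series, the control immunoprecipitate (IP) and the control input, chosen by their sample titles. It shows which RNA a GFP-Trap capture recovers without tagged MTA. Of 32548 nuclear loci in the tables, 22061 had a read in the 2 control libraries and 10955 had at least 40 reads over both and were compared.

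The plants were Col-0 and 4 weeks old, grown on soil in long days, with the tissue given as leaf and also as aerial tissue. Titles call the control line GFP whereas its genotype entry reads CFP, so the word control is used throughout; the promoter of either transgene is not stated in the labels. Tissue was crosslinked with formaldehyde, the nuclear fraction was taken, magnetic GFP-Trap beads were applied, and the RNA was extracted with phenol and chloroform and made into directional libraries. The MTA-GFP line went through the same steps and gives the other pair of libraries, an MTA-GFP input and an MTA-GFP IP. With 1 library per group, differences have no replicate check and no p-value is given: every comparison is between libraries and not between conditions.

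As background, GFP-Trap beads carry a small GFP-binding protein, and MTA is a methyltransferase that deposits N6-methyladenosine (m6A) on messenger RNA. A bead capture also retains RNA that binds the beads, the tube or other proteins, and a control capture measures that part. Nuclear preparations from leaves carry chloroplast and cytosolic RNA along with small nuclear RNAs. Among these, small nucleolar RNAs (snoRNAs) guide modification of ribosomal RNA and small nuclear RNAs (snRNAs) form the spliceosome.

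Assigned reads numbered 40011486 for the input and 45198236 for the IP of the control, of which 1698319 and 951030 fell on nuclear mRNA. A typical nuclear locus held 0.501 control IP reads for each control input read, and ratios of loci are given relative to that typical locus, as log2(reads + 0.5). A locus is called higher or lower where it differed at least 2-fold and its exact 95% interval left out no change. Intervals cover counting error only, and reads copied by PCR are not independent molecules. The MTA transcript (AT4G10760) had 64 reads in the control input and 31 in the control IP, a log2 ratio of -0.04 (-0.72 to 0.59), against 2291 and 12860 in the MTA-GFP input and IP.

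Ribosomal RNA dominated both control libraries, and the control IP held more chloroplast ribosomal RNA than its input. The chloroplast entries as a whole rose from 22.1% of reads in the control input (95% Wilson interval 22.1 to 22.1) to 49.8% in the control IP (49.8 to 49.8), and they fell from 19.6% to 5.88% in the MTA-GFP pair. Nuclear mRNA fell from 4.24% of control input reads to 2.1% of control IP reads. Loci of the nuclear ribosomal DNA fell from 44.0% to 24.2%, snRNA genes from 0.947% to 0.132%, and snoRNA genes rose from 0.0473% to 0.128%. Unnamed structural RNA entries, part of which may also be nuclear ribosomal RNA, went from 26.3% to 22.4%. Outside the organelles, nuclear mRNA took 5.61% of the control input and 4.28% of the control IP. A higher share of one class lowers the shares of the others, so the classes are also given below relative to the typical nuclear locus.

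**Figure D1:**
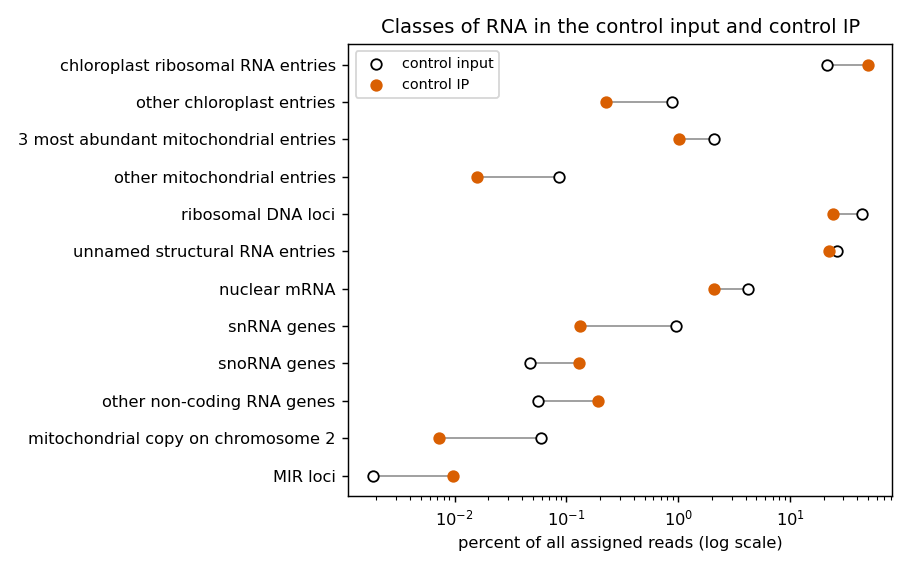
Share of all assigned reads, in percent on a log axis, held by 12 classes of RNA in the control input (open points) and the control IP (filled points), 1 library each. Chloroplast ribosomal RNA entries went from 21.2% to 49.5%, while the other chloroplast entries went from 0.886% to 0.228%.

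Within the chloroplast the change lay in ribosomal RNA, while nearly all other chloroplast transcripts were lower in share in the control IP. The 2 entries with the length of the reference 23S ribosomal RNA gene (2810 bases), ATCG00950 and ATCG01180, together held 11.5% of control input reads and 33.1% of control IP reads, 2.88-fold. The 2 entries with the length of the 16S gene (1491 bases), ATCG00920 and ATCG01210, held 9.69% and 16.4%, 1.69-fold. Entries of the 4.5S length (103 bases) were 1.74-fold, and those of the 5S length (121 bases) 0.917-fold. The copies within each pair received almost equal reads and cannot be told apart. These values are shares, so a larger pool of one RNA lowers the others.

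Outside the ribosomal RNA lengths, 109 chloroplast entries had at least 40 reads. Of these, 100 were at least 2-fold lower in share in the control IP, with 0 higher and a median share ratio of 0.150. On that scale, all assigned reads, 58.5% of the 10955 nuclear loci were also lower and 1.25% higher. ATCG00020 had 153443 reads in the control input and 49438 in the control IP, 3.51-fold lower in share. ATCG00490 had 52442.7 and 22563 reads, 2.63-fold lower. ATCG00120, at 11638 and 1159 reads, was 11.3-fold lower. Together the entries outside ribosomal RNA were 0.258-fold in share and 0.581-fold relative to the typical nuclear locus (0.577 to 0.585), so they were lower on both scales. With MTA-GFP they were 0.220-fold in share.

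Mitochondrial transcripts were also lower in share, with 47 of 50 compared entries at least 2-fold lower and 1 higher. On that scale 58.5% of the 10955 nuclear loci were lower and 1.25% higher. The 3 most abundant mitochondrial entries, ATMG01390, ATMG00020 and ATMG00030, fell together from 2.08% to 1.01% of reads. That was 1.09-fold on the scale of the typical nuclear locus. The other mitochondrial entries fell from 0.0867% to 0.0158%, which was 0.410-fold relative to the typical nuclear locus. ATMG01190 had 6454.83 reads in the input and 533.447 in the IP, 13.7-fold lower in share. ATMG01380, a 118-base entry, ran the other way, from 180 reads to 2895, 14.2-fold higher in share. The nuclear copy of mitochondrial DNA on chromosome 2 was lower relative to the typical nuclear locus. Of 48 loci compared there, 38 were lower and 0 higher, with a median log2 ratio of -1.90. On that scale 13.3% of all loci were lower and 8.62% higher. Reads of these loci may belong to mitochondrial transcripts, since the copy is near-identical.

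**Figure D2:**
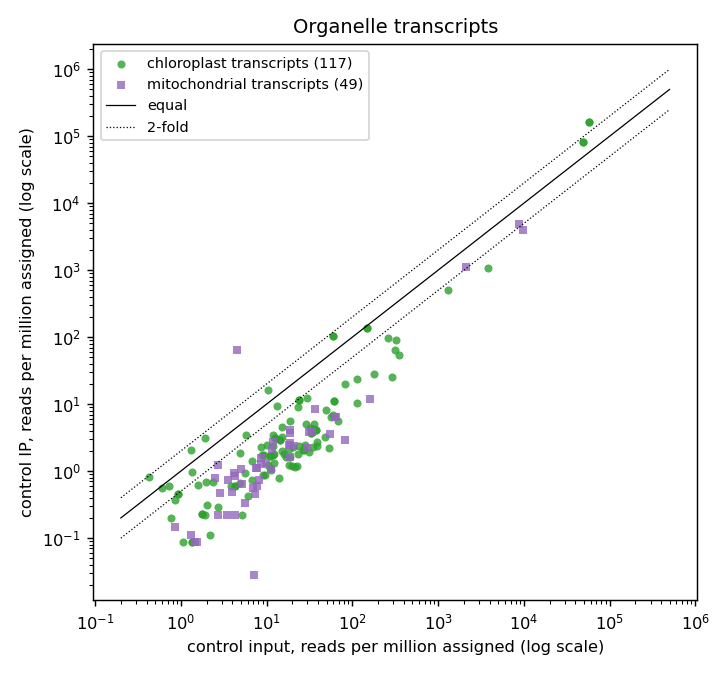
RPM (reads scaled to the assigned total) in the control IP against the control input for each chloroplast and mitochondrial entry with at least 40 reads, both axes logarithmic, 1 point per entry; ATMG00290, with 0 control IP reads, is not drawn. The chloroplast pairs of the 23S, 16S and 4.5S lengths lie above the line of equal share, the 5S pair lies just below it at 0.917-fold, and 100 of the other 109 chloroplast entries lie below the lower dotted line, which marks 2-fold.

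Among nuclear loci the control IP was not an even sample of its input. Over the 10955 loci, 944 were higher (8.62% of those tested) and 1455 were lower (13.3%), with a lower quartile of log2 ratios of -0.56 and an upper quartile of 0.50. Nuclear mRNA made up 814 of the higher and 1395 of the lower loci. Among the called loci 39.3% were higher. That share was 27.4% with nuclear mRNA reads as the scale, 19.0% with all nuclear-encoded reads and 2.09% with all assigned reads. Scaled to all assigned reads, the median locus was at -1.16 and every log2 ratio moved by -1.17, so each direction given below is relative to the typical nuclear locus.

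**Figure D3:**
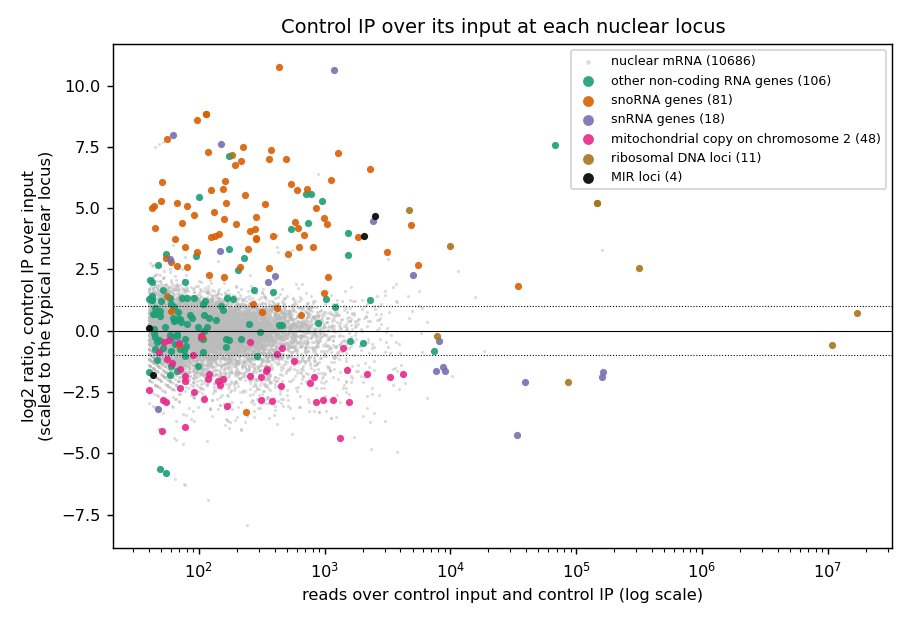
Log2 ratio of control IP over control input, scaled to the typical nuclear locus, against the reads over both libraries on a log axis, 1 point per locus, 10955 loci less the 1 pseudogene. Dotted lines mark 2-fold; snoRNA genes lie mostly far above them, and of the 48 loci of the mitochondrial copy 38 were lower, while 10 were not called.

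Small nucleolar RNAs were well above the typical locus. Summed over all 287 snoRNA genes with no minimum, 18906 reads in the control input and 58015 in the control IP gave a ratio of 6.12 (6.02 to 6.22) relative to the typical locus, and 2.72 in share of reads. The gene AT2G08770 alone held 12466 and 21953 of these reads, and without it the ratio was 11.2 (10.9 to 11.5). In the MTA-GFP pair the same sum was 0.901-fold, and 1.53-fold without AT2G08770. Of the 287 genes, 199 had a read and 81 reached the minimum, with 74 higher, 1 lower and a median log2 ratio of 4.3. Genes that reached the minimum only through the control IP had to differ, so this count supports nothing about the class. Among the 49 that had at least 20 reads in the MTA-GFP input, a library that takes no part in the ratio, 39 were higher and 2 lower, the median being 3.22; of all 9421 loci chosen that way, 725 were higher.

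Single snoRNA genes showed the size of these differences. AT1G06253 had 16 control input and 1255 control IP reads, a log2 ratio of 7.25 (6.58 to 8.10). AT1G06463 had 46 and 2256 reads, at 6.60 (6.19 to 7.07). AT4G39363 had 0 reads in the input and 434 in the IP, at least 288-fold higher with the input set to 3 reads, and it had 13 reads in each MTA-GFP library. AT1G04223, with 0 and 114 reads, was at least 75.8-fold higher. AT5G02565, among the most abundant, had 1294 and 4198 reads, at 2.69 (2.60 to 2.78). AT2G08585 was the 1 gene past the size rule downward, with 226 and 11 reads, at -3.3 (-4.39 to -2.50), and it was at -3.33 in the MTA-GFP pair too.

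Genes that overlap a snoRNA gene in the reference table were more often above the 2-fold line than genes that overlap none, without a test. This group was formed after the ratios were seen, and the reads of a snoRNA and an overlapping gene cannot be told apart here. Overlap was taken by gene position, without regard to strand or exons, and the strand setting of the counting is not given. Of 56 compared mRNA and non-coding genes that overlap a snoRNA gene, 26 were higher and 3 lower, with a median log2 ratio of 0.79. Of 10736 that overlap none, 7.69% were higher and the median was 0.00. Genes that reached the minimum only through the control IP had to differ, so the count of 26 supports nothing about the group. Among the 42 with at least 20 reads in the MTA-GFP input, 17 were higher and 2 lower, the median being 0.54. Of all 9421 loci chosen that way, 725 were higher. AT3G17890 had 48 and 782 reads, at 5.01 (4.60 to 5.47), and the long non-coding AT4G03905, which overlaps 2 snoRNA genes, had 2 and 173 reads, at 7.11 (5.56 to 10.49). EIF3G1, an initiation factor subunit, had 75 and 347 reads, at 3.20 (2.84 to 3.59). Of 13 genes that overlap an snRNA gene, 0 were higher and 3 lower, and of 21 that overlap a transfer RNA gene, 1 was higher and 3 lower. Over all loci 8.62% were higher and 13.3% lower, and these few calls set neither group apart.

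The snRNAs did not move as one class. The abundant U1, U2 and U5 genes were lower in the control IP, while U4 and U6 genes were higher. Summed over its genes, U1 snRNA had 281284 input and 41137 IP reads, 0.292-fold (0.289 to 0.295) relative to the typical locus. U2 had 89537 and 13157, 0.293-fold, and U5 had 7870 and 1245, 0.315-fold. The U4 genes had 225 and 2364 reads, 20.95-fold (18.3 to 24.1), and the U6 genes had 4 and 1343 reads, 669.5-fold (261 to 2461). In the MTA-GFP input the U6 genes had 278 reads, so the size of the U6 ratio rests on very few control input reads. The minor spliceosome RNA U12 had 12 and 47 reads, 7.81-fold (4.08 to 16.2).

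Of 18 snRNA genes compared, 9 were higher and 8 lower, against 8.62% and 13.3% of all loci. Their median log2 ratio was 0.78. Chosen by the MTA-GFP input in place of the control libraries, 16 genes had a median of -0.96, so the sign of the median rests on which genes are counted. U2.14 had 32974 and 870 reads, at -4.25 (-4.35 to -4.15), and U1.7 had 140583 and 21633 reads, at -1.70 (-1.73 to -1.68). U4.8 had 198 and 2243 reads, at 4.49 (4.29 to 4.71), and U6.3 had 1 and 1194 reads, at 10.63 (8.74 to 16.52). In the MTA-GFP pair the sums were 0.178-fold for U1, 0.161-fold for U2, 8.17-fold for U4 and 14.7-fold for U6, the same directions. Copies of each snRNA are near-identical, so the split within a family is uncertain and the sums are firmer.

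Around the nuclear ribosomal DNA, the 164-base ribosomal RNA was far above its input. The 18S ribosomal RNA, summed over AT2G01010 and AT3G41768, was 1.63-fold relative to the typical locus. Of 12 loci compared within 10 kb of a ribosomal RNA gene, 8 were higher and 1 lower, against 8.62% and 13.3% of all loci. Their median log2 ratio was 3.01, against -0.98 in the MTA-GFP pair. The copies AT2G01020 and AT3G41979, had 7624 input reads each and 139751 and 139741 IP reads, at 5.19 (5.16 to 5.23) each, and their share of all reads went from 0.0381% to 0.618%. AT3G41768, an rRNA gene of 1808 bases, was at 0.72 (0.71 to 0.72). The other 18S gene, AT2G01010, was the 1 lower locus, at -2.09. AT2G01021, a 102-base locus listed as protein-coding, held 20.2% of control input and 5.97% of control IP reads, 0.667-fold relative to the typical locus. AT3G41762 had 287 and 4351 reads, at 4.92 (4.75 to 5.10), and AT3G06355 had 79955 and 233371 reads, at 2.54 (2.53 to 2.55). The copies share reads, so the split between them is uncertain.

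The unnamed structural RNA entries are given for the 4 lengths with most reads. The entries of 1808 bases fell from 23.6% to 17.1% of reads, with 9444197 input and 7720195 IP reads. The 18S ribosomal RNA genes AT2G01010 and AT3G41768 together held almost the same, 9442038 and 7719194. AT3G41768 is also 1808 bases long, so these entries may be copies of the same ribosomal RNA that share its reads. The entries of 156 bases rose from 1.09% to 4.14%, 3.79-fold, while those of 306 bases fell from 0.284% to 0.143%, 0.502-fold. The entries of 154 bases held 0.434% and 0.391%, 0.901-fold. Relative to the typical nuclear locus all 4 were above 1, at 1.63-fold for 1808 bases, 8.54-fold for 156, 1.13-fold for 306 and 2.03-fold for 154, so the direction of the other 3 depends on the scale while that of the 156-base entries does not.

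Other non-coding RNA genes were mixed. Of 106 compared, 38 were higher and 10 lower, against 8.62% and 13.3% of all loci. Their median log2 ratio was 0.50, which turned to -0.67 when scaled to all assigned reads. AT1G15405, a 292-base non-coding RNA, had 715 input and 67598 IP reads, at 7.56 (7.45 to 7.67). It had more input reads in the MTA-GFP pair, with 5977 and 271014, at 3.75. With it the class was 7.65-fold relative to the typical locus, and without it 1.68-fold (1.65 to 1.72), or 0.748-fold in share. AT4G13495, with 5749 and 1646 reads, was at -0.81 (-0.89 to -0.73), below the size rule.

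Among the 325 microRNA loci, 4 reached the minimum. MIR4228 had 248 and 1787 reads, at 3.84 (3.65 to 4.04). MIR5642a, which overlaps AT3G41762 in the reference, had 181 and 2322 reads, at 4.67 (4.46 to 4.90). MIR850 had 38 and 5 reads, at -1.81 (-3.63 to -0.58), and MIR167d had 26 and 14, at 0.13 (-0.95 to 1.09). Without MIR4228 and MIR5642a the other loci summed to 318 and 246 reads, 1.54-fold (1.3 to 1.83) relative to the typical locus and 0.685-fold in share.

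Of nuclear-encoded mRNAs, those of the light-harvesting antenna had the highest median among the gene lists compared, apart from the classes of non-coding RNA. These proteins bind chlorophyll and pass light energy to the photosystems. Of 17 compared genes, 13 were higher, 0 were lower and the median log2 ratio was 1.47, against -0.14 in the MTA-GFP pair. Among all loci 8.62% were higher and 13.3% lower. LHCB1.5 had 3097 input and 8346 IP reads, at 2.43 (2.37 to 2.49), and LHCB1.3 had 6746 and 8836, at 1.39 (1.34 to 1.43). LHCB3 had 1285 and 2215 reads, at 1.78 (1.68 to 1.88). LHCA1, of photosystem I, stood apart with 3931 and 1871 reads, at -0.08 (-0.16 to 0.00). All 17 were at least 2-fold higher in the control ratio than in the MTA-GFP ratio, as were 8.41% of all loci, while 9.47% of all loci were at least 2-fold lower. Reads of the LHCB1 genes can be shared between paralogs. Scaled to all assigned reads the median was 0.30.

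Subunits of the photosystems and of electron transport followed at a smaller size. Of 31 compared genes, 12 were higher and 0 lower, where 8.62% of all loci were higher and 13.3% lower. The median of the 31 genes was 0.65 against -0.75 with MTA-GFP. Scaled to all assigned reads their median turned to -0.52. PSBX, a small subunit of photosystem II, had 232 and 432 reads, at 1.89 (1.66 to 2.13). PSAG of photosystem I had 411 and 634 reads, at 1.62 (1.44 to 1.80), and PSAL had 574 and 885, at 1.62 (1.47 to 1.77). PSBO1 of the oxygen-evolving complex had 2728 and 1947 reads, at 0.51 (0.42 to 0.59), and did not reach the size rule. PETE2, a plastocyanin, was at -0.35 (-0.51 to -0.20). Of the 31, 28 were at least 2-fold higher in the control ratio than in the MTA-GFP ratio, as were 8.41% of all loci.

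Enzymes of carbon fixation and photorespiration spread widely, with 3 of 25 higher, a share near the 8.62% of all loci, 1 lower and a median of 0.40, which turned to -0.77 when scaled to all assigned reads. GAPA, a glyceraldehyde phosphate dehydrogenase of the Calvin cycle, had 471 and 649 reads, at 1.46 (1.28 to 1.63), and AGT1, a photorespiratory aminotransferase, had 779 and 894, at 1.19 (1.05 to 1.33). RBCS1A, the main small subunit of Rubisco, had 3965 and 2530 reads, at 0.35 (0.28 to 0.42), while RBCS1B had 2476 and 204, at -2.60 (-2.82 to -2.40). The RBCS copies share reads, so this contrast within the family is uncertain.

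Housekeeping mRNAs were also above the typical locus. Of 14 genes for translation factors, actins and polyubiquitins, 8 were higher and 0 lower, and the median was 1.03. ACT2, an actin, had 183 and 256 reads, at 1.48 (1.2 to 1.76), and UBQ10, a polyubiquitin, had 1117 and 1486, at 1.41 (1.29 to 1.52). EIF4A1, an RNA helicase of translation initiation, was at 1.31 (1.07 to 1.56), and it is also among the genes that overlap a snoRNA gene. Scaled to all assigned reads the median of the 14 turned to -0.14. Cytosolic ribosomal proteins had a median of 0.37 over 39 genes, 5 of them higher, a share near the 8.62% of all loci, and 2 lower. That median turned to -0.81 when scaled to all assigned reads. RPL24A, with 91 and 13 reads, was at -1.77 (-2.77 to -0.97), while RPS5A, with 71 and 86, was at 1.27 (0.80 to 1.75).

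Chaperone mRNAs had the lowest median among the lists of mRNAs. Of 13 genes for protein folding in the endoplasmic reticulum and for heat shock, 8 were lower and 0 higher. Among all loci 13.3% were lower and 8.62% higher. The median of the 13 was -1.08, against -0.93 with MTA-GFP. CNX1, a calnexin, had 1033 input and 139 IP reads, at -1.89 (-2.16 to -1.64). BIP1, the luminal Hsp70, had 953 and 159, at -1.58 (-1.84 to -1.34), and CRT1A, a calreticulin, had 577 and 95, at -1.60 (-1.94 to -1.29). HSP90.2 had 584 and 118, at -1.31 (-1.61 to -1.02). HSC70-1, a cytosolic Hsp70, was at 0.38 (0.25 to 0.50). None of the 13 differed by the size rule between the control and MTA-GFP ratios.

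Salicylate defence mRNAs had 3 of 9 lower and 0 higher, where 13.3% of all loci were lower and 8.62% higher. The pathogenesis-related genes PR5 (557 and 97 reads), PR2 (667 and 152 reads) and PR1 (91 and 22 reads) were at -1.52, -1.13 and -1.03, and their intervals were -1.85 to -1.21, -1.40 to -0.88 and -1.80 to -0.37. In the touch, cold and wound list 3 of 21 were higher and 2 lower, shares of 14.3% and 9.52%. These few calls do not set the list apart from all loci. CML24, a calmodulin-like protein, had 354 and 44 reads, at -2.0 (-2.50 to -1.56), and CBF2, a cold-response regulator, had 26 and 34, at 1.38 (0.60 to 2.18).

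Genes of RNA metabolism and the clock, pooled over 4 lists, were lower about as often as all loci, of which 13.3% were lower. Of 14 genes of miRNA biogenesis, 4 were lower and 0 higher, although the median was -0.16. MOS2, an RNA-binding protein, had 261 and 13 reads, at -3.28 (-4.26 to -2.53). DDL, which binds DCL1, had 371 and 27, at -2.76 (-3.41 to -2.22), and CBP20, a cap-binding subunit, had 137 and 14, at -2.25 (-3.20 to -1.50). DCL1 itself had 817 and 390 reads, at -0.07 (-0.25 to 0.10). Of 11 m6A genes, 3 were lower and 0 higher, among them CPSF30 with 98 and 23 reads, at -1.07 (-1.82 to -0.43). Of 19 SR splicing factors 1 was lower, and of 18 clock genes 1 was, the glycine-rich RNA-binding protein GRP8, with 9038 and 1271 reads, at -1.83 (-1.92 to -1.75). Its paralog GRP7 had 14324 and 4058 reads, at -0.82 (-0.87 to -0.77).

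Over all loci 8.62% were higher and 13.3% lower, and the few calls in the histone and respiration lists set neither list apart. Of 11 histone genes compared, 2 were higher and 1 lower, and of 9 genes of mitochondrial respiration encoded in the nucleus 1 was higher and 1 lower. The higher one, AT5G61310, had 544 and 2646 reads, at 3.28 (3.14 to 3.41), and was at -0.95 in the MTA-GFP pair. It overlaps AT5G61300 in the reference. The lower one, COX6B, a cytochrome oxidase subunit, had 95 and 15 reads, at -1.63 (-2.56 to -0.87).

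Markers of cell types were measured as further lists. The IP and its input come from the same extract, so these ratios describe recovery of the RNA and not the tissue. Of 10 phloem markers 2 were higher and 0 lower, where 8.62% of all loci were higher and 13.3% lower. The 2 had few reads, SWEET12 with 16 input and 27 IP reads and SEOB with 26 and 36. These few calls do not set the list apart. The median was 0.45 in the control pair and -1.73 in the MTA-GFP pair. Of the 10, 8 were at least 2-fold higher in the control ratio than in the MTA-GFP ratio, as were 8.41% of all loci. Scaled to all assigned reads the control median turned to -0.73. SUC2, the sucrose transporter of companion cells, had 259 and 198 reads, at 0.61 (0.33 to 0.88), against -2.14 with MTA-GFP. The guard cell, myrosin cell and epidermal markers had lower members at a share near the 13.3% of all loci. Of 7 guard cell and myrosin cell markers, 1 was lower, the myrosinase TGG1, with 3430 and 644 reads, at -1.42 (-1.54 to -1.30). Of 7 epidermal markers, 1 was lower, CER1, a gene of wax synthesis, at -1.04 (-1.60 to -0.53).

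**Figure D4:**
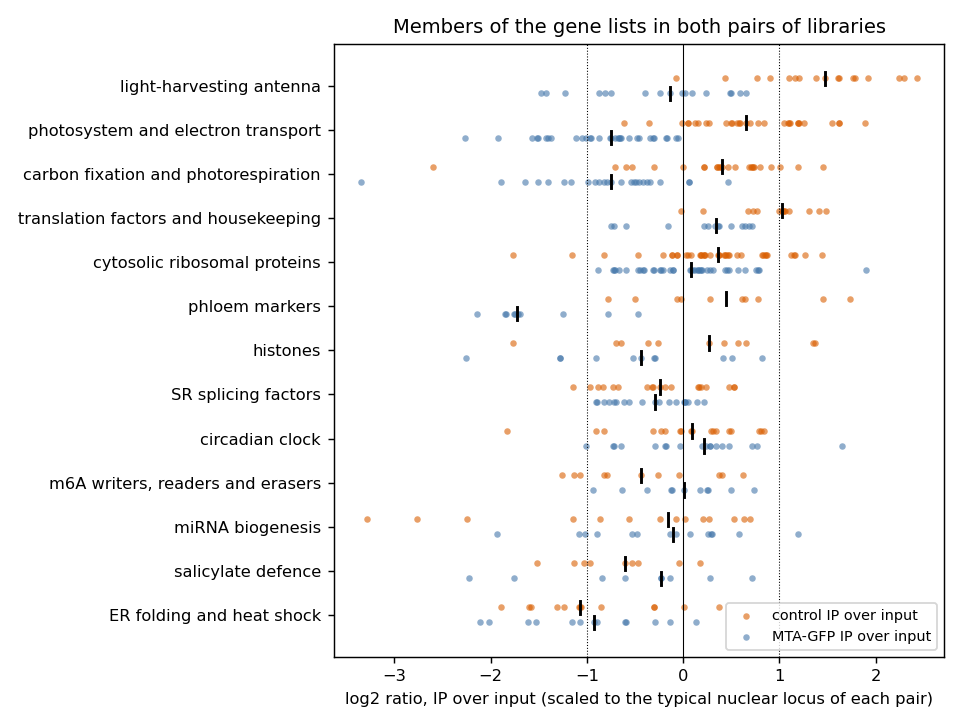
Log2 ratio of IP over input of each compared member of 13 gene lists, for the control pair and the MTA-GFP pair, each scaled to its own typical nuclear locus, with black ticks at the medians. Antenna genes lie mostly above 1 in the control pair (median 1.47) and around -0.14 in the MTA-GFP pair, while chaperone genes lie low in both (-1.08 and -0.93).

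Receptor-like proteins, cell-surface proteins with leucine-rich repeats that act in defence and development, were noticed among the higher mRNAs after the ratios were seen. Of 27 compared, taken by their RLP symbols, 12 were higher, 0 were lower and the median was 0.89. Among all loci 8.62% were higher and 13.3% lower. Since the family was picked from these same ratios, the count supports nothing about it. In the MTA-GFP pair its median was 0.40, with 4 higher and 0 lower. RLP31 had 75 and 180 reads, at 2.25 (1.86 to 2.67), and RLP19 had 816 and 940, at 1.2 (1.06 to 1.34). The family shares sequence, so reads may be divided between members.

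The highest mRNA locus by the end of its interval was ROC2, a cyclophilin (peptidyl-prolyl isomerase), with 20 input and 861 IP reads, at 6.39 (5.79 to 7.14), and 40 and 807 in the MTA-GFP pair, at 2.56. The other 14 of the 15 highest loci were 11 snoRNA genes, U6.3, U6.4 and AT1G15405. AT2G16586, which the reference table does not name, had 27015 and 132035 reads, at 3.28 (3.27 to 3.3), and 10133 and 14575 in the MTA-GFP pair. Without it, the sum over nuclear mRNA was 0.977-fold relative to the typical locus in place of 1.12-fold.

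The 15 lowest loci were 13 mRNA loci outside the mitochondrial copy, U2.14 and AT2G07751 of that copy. UGT75B1, a glucosyltransferase, had 243 reads in the control input and 0 in the control IP, at least 40.6-fold lower with the IP set to 3 reads, although the MTA-GFP pair held 111 and 152. AT1G06000 had 118 and 0 reads, at least 19.7-fold lower. AT1G24881, with 78 and 0 reads, has near-identical copies and is uncertain. Both UGT75B1 and AT1G06000 overlap a long non-coding RNA gene. AT1G56660 had 3678 and 60 reads, at -4.93 (-5.34 to -4.57), and AT1G04800 had 2311 and 40, at -4.84 (-5.35 to -4.41). BAG7, a co-chaperone, had 1085 and 45, at -3.58 (-4.06 to -3.17). AT1G56660, AT1G04800 and BAG7 were also below their input in the MTA-GFP pair, at -1.44, -2.53 and -1.03. In RPM these loci held 91.9, 57.8 and 27.1 in the control input, against 9.35, 9.56 and 4.03 in the MTA-GFP input. Their control IP values were 1.33, 0.885 and 0.996, against 14.2, 6.81 and 8.14 in the MTA-GFP IP. Nuclear mRNA as a whole held 4.24% and 2.27% of reads in the inputs. AT1G17820, also among the 15 lowest, had 76 control input reads and 0 in the control IP and the MTA-GFP pair. How far the high control input sets these ratios was not tested.

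The median ratio varied weakly with the length of the mRNA, while the share of lower loci fell with length. Loci of 600 to 1000 bases had a median of -0.01 with 12.4% higher and 18.4% lower, and loci of 4000 bases or more had 0.26 with 6.83% and 5.97%. The 45 mRNA loci under 600 bases had a median of -0.16, with 8.89% higher and 26.7% lower, whereas the short snoRNA genes were far above. Binned by control input reads per kb, which share reads with the ratio, medians went from 0.46 below 20 reads to -0.65 at 320 and above. Binned by MTA-GFP input reads per kb, which do not, they lay between -0.09 and 0.06. By number of transcript models per locus, medians lay between -0.02 and 0.05. These are descriptions with no test.

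The control and MTA-GFP ratios, which share no library, resembled each other in part. Across the 10955 loci their Spearman correlation was 0.48 and Pearson's r 0.51, across loci that are not independent. Of the 944 higher loci 252 (26.7%) were also higher with MTA-GFP, which is 37.8% of the 667 higher there. Of the 1455 lower loci 382 (26.3%) were also lower, which is 48.6% of 786. Opposite calls were made at 24 loci that were higher with the control and lower with MTA-GFP, and at 21 of the reverse kind. The control ratio was at least 2-fold above the MTA-GFP ratio at 921 loci and below it at 1037.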

How the data were processed

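The submitters' processing notes name Trimmomatic, Bowtie, HISAT2, Salmon and build TAIR10, without roles or versions; no source used here gives the strand setting. Per the file headers, each deposited table gives an estimated count (NumReads) and a TPM value per entry, for 55524 entries. Both spike-in entries had 0 reads.

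Estimated counts were summed per nuclear locus and rounded. Names, gene types and neighbours came from RefSeq (TAIR10.1), which held all 32548 loci. Scales were TMM factors from edgeR 4.0.16 (R 4.3.3) over loci with at least 40 reads in the 2 control libraries: 0.501 IP reads per input read for the control and 3.38 for MTA-GFP. Intervals of ratios are exact conditional (Clopper-Pearson) 95% intervals, those of differences between the pairs use Poisson variances, and shares have Wilson intervals. A 0 was bounded with 3 reads. Alternatives used DESeq2 1.42.0 size factors, other scales and minimums, and deposited TPM with 0.05 added. The size rule was tested on simulated counts.

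The rule for named loci took the 15 highest and 15 lowest, up to 4 per list (2 by reads, 2 by ratio), microRNA loci past the minimum, MTA, and 5 abundant entries per organelle genome. Chosen after their values were seen were AGT1, BIP1, CBP20, CPSF30, EIF3G1, EIF4A1, HSP90.2, LHCA1, LHCB3, PETE2, PR1, PSAL, RLP19, RLP31, RPS5A, U4.8, ATCG00120, ATMG01380, AT2G01010, AT2G08585, AT2G16586, AT3G06355, AT3G17890, AT3G41762, AT3G41979, AT5G61300, the sums per snRNA, the receptor-like proteins and the genes that overlap small RNA genes. Members and lists were chosen with earlier results of these data known.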

Additional observations from a re-analysis of the deposited data

Results flagged for a closer look

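In 4 groups of loci the median log2 ratio was at least 0.5 above 0 in the control pair and at least 0.5 below 0 in the MTA-GFP pair. The difference was not tested, since each group holds 1 library. Photosystem and electron transport genes had 0.65 with the control and -0.75 with MTA-GFP. The snRNA genes had 0.78 and -1.10, the 4 microRNA loci 1.98 and -0.61, and the loci around ribosomal DNA 3.01 and -0.98. Scaled to all assigned reads, the control medians of the photosystem list and the snRNA genes turned to -0.52 and -0.39. The snRNA median has the other sign when genes are chosen by the MTA-GFP input, at -0.96, and the microRNA median rests on 4 loci, at 0.12 without those near ribosomal DNA. Medians also had opposite signs, with at least one closer to 0, for the antenna (1.47 and -0.14), carbon fixation (0.40 and -0.75), phloem markers (0.45 and -1.73) and histones (0.27 and -0.43). The signs were the other way round for epidermal markers (-0.31 and 0.33), the touch, cold and wound list (-0.15 and 0.09) and m6A genes (-0.43 and 0.01).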

How the results depend on the processing

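No paired analysis was possible because each group holds 1 library, and for the same reason no library could be left out. Of the loci compared, 944 were higher and 1455 lower. The higher count was 509 when scaled to all nuclear-encoded reads, 137 to all assigned reads, 1562 with a minimum of 10 reads, 462 with 100, 1678 with no minimum, 163 on deposited TPM and 157 at 4-fold. The lower count was 6411 when scaled to all assigned reads, 847 with a minimum of 100 reads, 268 on deposited TPM and 363 at 4-fold. The antenna median of 1.47 was 1.18 when scaled to nuclear-encoded reads, 0.30 to all assigned reads and 1.31 to nuclear mRNA reads. The snoRNA median of 4.3 was 3.13 when scaled to all assigned reads, 3.26 with no minimum and 3.22 for genes chosen by the MTA-GFP input, a choice made after seeing the data. The housekeeping median turned to -0.14 when scaled to all assigned reads. The share of unnamed structural RNA, 0.851-fold, turned to 1.31-fold among reads outside organelles. None of the 76 named loci past the size rule changed direction in an alternative run, whereas loci and list medians closer to 0 changed sign, mostly under other scales; of the 76, 16 lost the call on deposited TPM, 12 when scaled to all assigned reads and 31 at 4-fold. Low counts limit the smaller lists and all loci near 40 reads.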
